A study of Homo sapiens with 36 samples.

Results

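Knockout clone 12 is 1 of 3 clones of the small-cell lung cancer line H446 in which NEUROD1 had been knocked out, and its 3 DMSO libraries, of 36 libraries in all, were compared with the 6 DMSO libraries of the other knockout clones, 15 and 2-1 (3 libraries each). Members were chosen by the clone and treatment in the column names, with no measured value. The comparison asks which transcript levels clone 12 took after loss of NEUROD1 that neither other knockout clone took. A gene was called only where all 3 clone 12 libraries lay above, or all 3 below, every library of both other clones.

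H446 is an established human line that the labels place in the NEUROD1 subtype of small-cell lung cancer (SCLC-N). Every knockout clone carried the same guide RNA against NEUROD1 (#297), and the control clones 3, 10 and 13 carried a non-targeting guide RNA and are labelled WT. Each clone was grown with DMSO, the solvent, or with the BET bromodomain inhibitor JQ1 at 1 µM, for 24 h. The labels give 3 biological replicates per clone and treatment, and poly(A) RNA was sequenced. Each clone is a single isolate, so p-values here compare cultures of these clones, and effects of the guide and of clone isolation cannot be told apart for 1 clone.

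NEUROD1 is a basic helix-loop-helix transcription factor that drives neuronal and endocrine differentiation. In small-cell lung cancer it marks a subtype with neuronal and secretory gene expression, set beside subtypes marked by other transcription factors. Cells of such tumours are known to leave the neuroendocrine state for epithelial or mesenchymal ones. Basal epithelium, marked by TP63 and keratins, lines airways and skin and grows in response to EGF receptor ligands.

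The knocked-out gene was at background in clone 12. NEUROD1 had 0, 0 and 1.08 normalized counts in the clone 12 libraries, against 0 in all 3 libraries of clone 15 and 4.11, 5.04 and 6.60 in clone 2-1, and the means of control clones 3, 10 and 13 were 6337, 5328 and 6330 normalized counts. A normalized count is the number of reads of a gene divided by 1 size factor per library, as the authors deposited it, so it is corrected for depth but not for gene length. The 9 knockout DMSO libraries held 13918686 to 17115449 reads over the genes of the table. Pairs of replicates differed beyond sampling noise, with 2.53 to 4.03 as the ratio of chi-square to its degrees of freedom over the 9 pairs.

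Clone 12 differed from both other knockout clones in 1627 of 16025 genes tested (10.2%): 735 were higher (4.59%) and 892 lower (5.57%). A call needed an adjusted p under 0.05 against both clones (limma on log2(normalized count + 1), Benjamini-Hochberg adjustment over all genes tested), no overlap of libraries and at least a 2-fold difference from the nearer clone. By the same rule clone 15 stood apart from its 2 fellow knockout clones in 853 genes (5.32%) and clone 2-1 in 1156 genes (7.21%). Among the control clones the counts were 710 genes for clone 3 (4.65%), 181 for clone 10 (1.18%) and 511 for clone 13 (3.34%) of 15284 tested. The 6 comparisons share libraries, so the counts are given side by side with no test between them. A bulk library cannot tell fewer cells of a type from less RNA per cell. Of the genes higher in clone 12, 399 differed at least 4-fold and 96 at least 32-fold. Of the lower genes 258 differed at least 4-fold and 3 at least 32-fold.

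**Figure D1:**
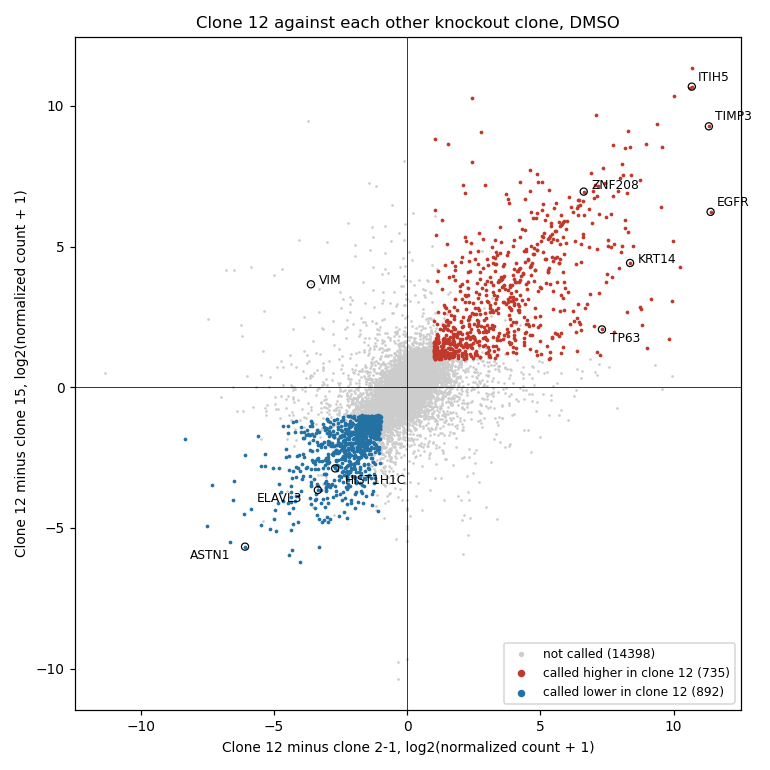
Each point is 1 of 16025 genes, with the mean difference of clone 12 from clone 2-1 on the horizontal axis and from clone 15 on the vertical axis, both in log2(normalized count + 1) with DMSO (3 libraries per clone). The 735 genes called higher lie in the upper right and the 892 called lower in the lower left, while VIM, which was between the other clones in clone 12, is not called.

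Control clones place these differences beside the level with NEUROD1 present. For 544 of the 735 higher genes (74.0%) all 3 control clones lay on the side of clones 15 and 2-1, meaning past the midpoint between clone 12 and the nearer of them on the log2 scale. Another 94 (12.8%) had all 3 control clones on the clone 12 side. Of the 892 lower genes 377 (42.3%) had the controls on the side of clones 15 and 2-1 and 287 (32.2%) on the clone 12 side. The remaining genes had control clones on both sides. There were 158 higher genes with under 5 normalized counts in both other knockout clones and in every control clone, and 32 of these had 100 or more in clone 12.

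The largest rises were of genes that clones 15 and 2-1 hardly expressed or did not. ITIH5, a secreted hyaluronan-binding protein, had 1683, 1625 and 1619.6 normalized counts in clone 12, against 0 in all 6 libraries of clones 15 and 2-1 (adjusted p = 2.16e-12). It was at least 3353-fold higher, counted against a floor of 3 reads over the 6 libraries. COL23A1, a transmembrane collagen, was likewise at 0 in all 6 other libraries, with 655, 648 and 668 in clone 12 (adjusted p = 2.67e-11), at least 1341-fold higher. TIMP3, a matrix-bound inhibitor of metalloproteinases, had 9086, 9325 and 9526 normalized counts in clone 12, against 12.99, 17.5 and 12.2 in clone 15 and 5.14, 3.02 and 0.942 in clone 2-1 (log2 difference from the nearer clone 9.27, SE 0.30, adjusted p = 3.52e-12). The groups did not overlap for any of these genes, and the control clones held at most 1.03 in their means. TENM2, a teneurin that joins cells across synapses, had 7105, 6895 and 6664 normalized counts in clone 12, against 5.57, 11.7 and 0 in clone 15 and 5.14, 6.04 and 0.942 in clone 2-1 (10.62, SE 0.68, adjusted p = 5.48e-09). ADAMTS9, a secreted metalloproteinase, had 2671, 2750.3 and 2433 normalized counts in clone 12, against 0 in all 3 of clone 15 and 1.03, 1.01 and 0 in clone 2-1. The 6 other libraries held 2 ADAMTS9 reads together (read ratio 7997, 95% interval 2213 to 66044, counting error only).

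Receptors and regulators stood among the same genes. AHR, the receptor of aryl hydrocarbons, was chosen after its values were seen: it averaged 1285 in clone 12, against 9.60 in clone 15 and 4.66 in clone 2-1 (log2 difference from the nearer clone 6.98, SE 0.30, adjusted p = 5.76e-11). RPS6KA2, a kinase downstream of ERK, had 1340.2, 1239.7 and 1367 normalized counts in clone 12, against 0 in all 3 of clone 15 and 0, 1.01 and 0 in clone 2-1. PDPN, the mucin-like podoplanin of basal and lymphatic cells, had 351, 383 and 363 normalized counts in clone 12, against 0 in all 3 of clone 15 and 0, 1.01 and 0 in clone 2-1. GJB6, a gap junction protein, had 359.9, 329 and 312 normalized counts in clone 12, against 1.86, 0 and 1.02 in clone 15 and 0 in all 3 of clone 2-1 (7.54, SE 0.44, adjusted p = 2.14e-09). GJB2, another gap junction protein and also chosen after its values were seen, averaged 2247 in clone 12, against 19.1 in clone 15 and 9.60 in clone 2-1 (6.81, SE 0.16, adjusted p = 9.85e-14).

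WISP1, a matricellular CCN protein, averaged 868 in clone 12, against 0.928 in clone 15 and 3.67 in clone 2-1, and CNTN4, an axonal adhesion molecule, 312 in clone 12, against 1.30 in clone 15 and 1.01 in clone 2-1. CHN2, a GTPase-activating protein for Rac, averaged 430.0 in clone 12, against 2.34 in clone 15 and 0 in clone 2-1, and ST8SIA4, a polysialyltransferase, 607 in clone 12, against 2.53 in clone 15 and 3.03 in clone 2-1. MARCH11, a ubiquitin ligase, was at 0 in the 6 other libraries, at least 289-fold higher in clone 12. CPVL (a carboxypeptidase), LSP1 (an actin-binding protein of leukocytes) and SMR3B (a salivary peptide precursor) complete the 20 largest rises, with 548, 429 and 253 normalized counts in the mean of clone 12.

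Some genes higher in clone 12 than in clones 15 and 2-1 were expressed in the control clones too. MC5R, a melanocortin receptor, had 303, 318 and 288 normalized counts in clone 12, against 3.71, 0.973 and 0 in clone 15 and 3.08, 0 and 1.88 in clone 2-1 (7.06, SE 0.58, adjusted p = 8.60e-08), and the control clones averaged 334, 574 and 481. In clone 12 MC5R was a little below the lowest control mean, and in clones 15 and 2-1 it was nearly absent. KCNK3, a leak potassium channel, showed the same order, with 321, 333 and 331 normalized counts in clone 12, against 4.64, 7.79 and 11.2 in clone 15 and 5.14, 8.06 and 6.60 in clone 2-1 and control means of 221, 979.6 and 1409 (5.28, SE 0.30, adjusted p = 1.64e-09). CDH15, a cadherin of muscle, averaged 278 in clone 12, against 19.8 in clone 15 and 5.01 in clone 2-1, and 401, 260.3 and 315 in the controls. SNAP25, a SNARE protein of vesicle release, averaged 2551 in clone 12, against 671 in clone 15 and 540.2 in clone 2-1, and 1803, 3486 and 3348 in the controls (1.93, SE 0.07, adjusted p = 4.90e-12).

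**Figure D2:**
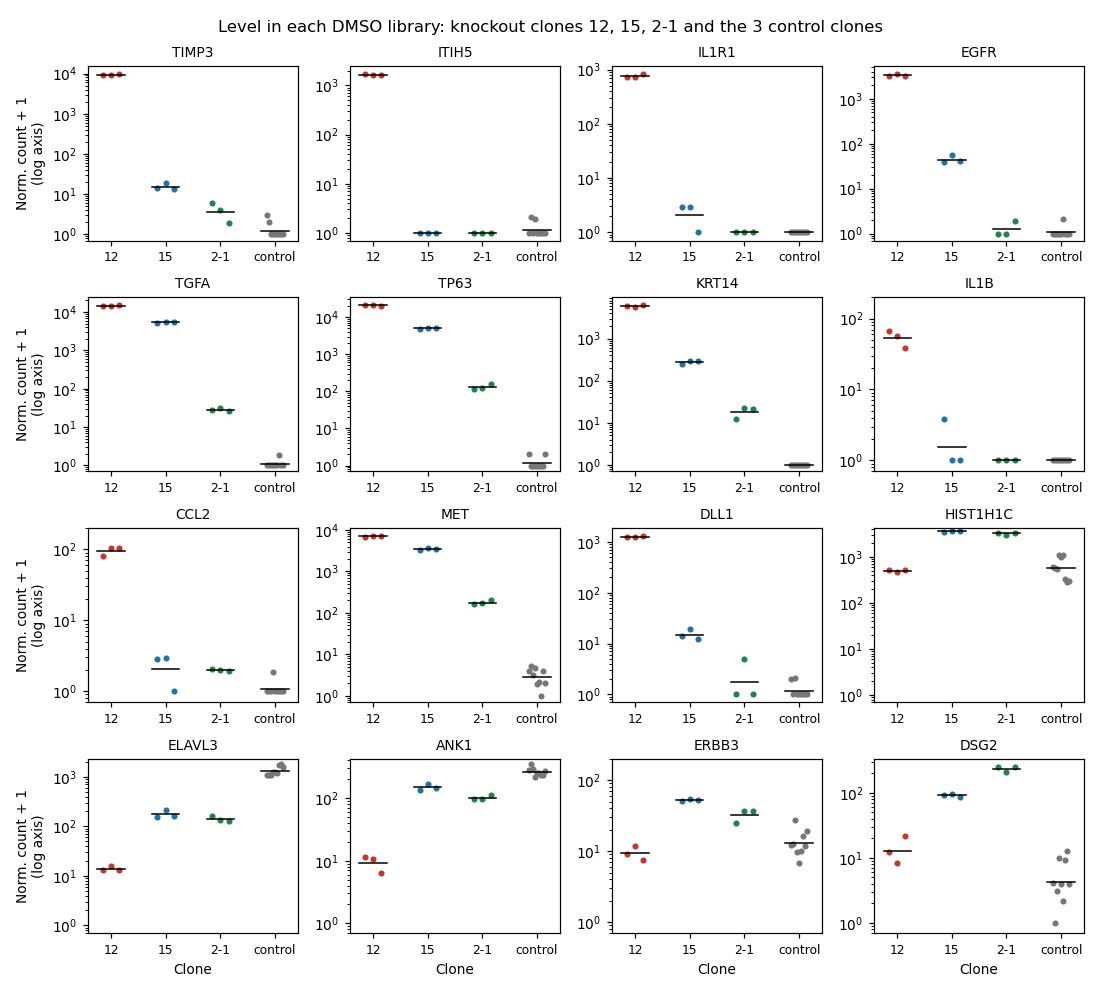
Each point is 1 DMSO library and each bar the mean on the log scale, for 16 genes in clone 12, clone 15, clone 2-1 (3 libraries each) and the 3 control clones (9 libraries), as normalized count + 1 on a log axis. Clone 12 libraries lie above all others of the knockout clones from TIMP3 to DLL1 and below them from HIST1H1C to DSG2, and ELAVL3 and ANK1 are highest in the control clones.

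Several basal epithelial genes were higher in clone 12. Of 28 members tested, 9 rose (32.1%, against 4.59% of all genes) and 1 fell. TP63, the master regulator of basal epithelium, had 20933, 20602 and 20401 normalized counts in clone 12, against 4802, 5163 and 4950.2 in clone 15 and 115, 121 and 155 in clone 2-1 (log2 difference from the nearer clone 2.05, SE 0.08, adjusted p = 1.36e-11). The 3 knockout clones thus took 3 separate levels, clone 12 the highest, while the control clones held at most 0.340 in their means. KRT14, a keratin that pairs with KRT5 in basal cells, had 5874, 5559.8 and 6225 normalized counts in clone 12, against 247, 286 and 293 in clone 15 and 11.3, 21.2 and 19.8 in clone 2-1 (4.42, SE 0.17, adjusted p = 1.27e-11). KRT17, a keratin of activated basal cells, had 425, 445 and 412 normalized counts in clone 12, against 14.8, 0 and 8.12 in clone 15 and 5.14, 2.01 and 1.88 in clone 2-1 (6.35, SE 0.72, adjusted p = 2.85e-06). SERPINB2, a plasminogen activator inhibitor, had 19.5, 30.2 and 29.2 normalized counts in clone 12, against 0 in all 6 libraries of clones 15 and 2-1. CLCA2, a basal membrane protein, had 76.9, 78.6 and 70.2 in clone 12 and at most 4.06 in the other DMSO libraries. LAMB3 (laminin 332), FAT2, KRT13 and KRT75 also rose, by 3.54, 2.96, 2.76 and 1.22 on the log2 scale from the nearer clone. KRT5 itself was not called: it averaged 1303 in clone 12, between 1833 in clone 15 and 73.7 in clone 2-1. ITGB4, the integrin of hemidesmosomes, fell, averaging 22.5 in clone 12, against 74.4 in clone 15 and 308 in clone 2-1 (-1.68, SE 0.16, adjusted p = 4.63e-07).

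Several genes of cell junctions and simple epithelium were lower. Of 20 tested, 5 fell (25%, against 5.57% of all genes) and 1 rose. DSG2, a desmosomal cadherin, had 11.3, 7.26 and 20.5 normalized counts in clone 12, against 91.8, 94.4 and 86.3 in clone 15 and 245, 208 and 251 in clone 2-1 (log2 difference from the nearer clone -2.82, SE 0.27, adjusted p = 4.81e-07). SPINT1, an inhibitor of membrane serine proteases, had 14.4, 29.03 and 16.2 normalized counts in clone 12, against 193, 224 and 245 in clone 15 and 136, 133 and 169 in clone 2-1 (-2.87, SE 0.23, adjusted p = 5.39e-08). Both were low in the control clones, with means of 1.73, 4.32 and 7.62 for DSG2 and 15.3, 8.44 and 25.3 for SPINT1, so clone 12 stood closer to the controls than the other knockout clones did. ESRP1 (an epithelial splicing factor), EPCAM and CLDN4 fell at levels no higher than 33.4 normalized counts in any knockout library with DMSO, and the ESRP1 call was lost in FPKM. The rise was that of CLDN1, a tight junction claudin, with 288, 330.2 and 346 normalized counts in clone 12, against 3.71, 7.79 and 6.09 in clone 15 and 9.25, 20.1 and 15.1 in clone 2-1 (4.41, SE 0.31, adjusted p = 1.64e-08). CDH1 (E-cadherin) averaged 8.76 in clone 12, between 187 in clone 15 and 0.314 in clone 2-1, and was not called.

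Receptors and ligands of the EGF receptor family were among the calls. These are receptor tyrosine kinases whose ligands are shed from the cell surface, and they drive growth of basal epithelium. Of 13 members tested, 5 rose (38.5%, against 4.59% of all genes) and 1 fell (7.69%, against 5.57%). EGFR had 3278, 3503 and 3251 normalized counts in clone 12, against 38.03, 54.5 and 39.6 in clone 15 and 0, 0 and 0.942 in clone 2-1 (log2 difference from the nearer clone 6.23, SE 0.26, adjusted p = 3.72e-11), and the highest control mean was 0.382. Its ligand TGFA averaged 14482 in clone 12, against 5467 in clone 15 and 27.1 in clone 2-1 (1.40, SE 0.06, adjusted p = 7.09e-11). HBEGF, a heparin-binding ligand, had 2216, 2195 and 2224 normalized counts in clone 12, against 353, 313 and 332 in clone 15 and 327, 369.7 and 340.1 in clone 2-1 (2.68, SE 0.06, adjusted p = 9.85e-14). NRG1 and NRG2, ligands of ERBB3 and ERBB4, also rose: NRG1 had 1689, 1713 and 1652 normalized counts in clone 12, against 216, 209 and 238 in clone 15 and 204, 190.4 and 188 in clone 2-1 (2.93, SE 0.07, adjusted p = 1.14e-13), and NRG2 had 105, 82.2 and 92.9 normalized counts in clone 12, against 10.2, 6.81 and 9.14 in clone 15 and 0, 4.03 and 0 in clone 2-1 (3.29, SE 0.54, adjusted p = 0.00012). ERBB3, the receptor of neuregulins, fell, with 8.20, 10.9 and 6.48 normalized counts in clone 12, against 50.1, 52.6 and 51.8 in clone 15 and 23.6, 36.3 and 35.8 in clone 2-1 (-1.79, SE 0.29, adjusted p = 0.000102), a call that was lost in FPKM.

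Other receptor tyrosine kinases and their ligands showed 8 rises and 3 falls among 33 tested (24.2% and 9.09%, against 4.59% and 5.57% of all genes). MET, the receptor of hepatocyte growth factor, averaged 7067 in clone 12, against 3492 in clone 15 and 176 in clone 2-1 (1.02, SE 0.06, adjusted p = 2.99e-09). EPHA2, an ephrin receptor, averaged 197 in clone 12, against 16.2 in clone 15 and 3.25 in clone 2-1. EPHB1, another ephrin receptor, averaged 278 in clone 12, against 35.01 in clone 15 and 1.64 in clone 2-1. Its control libraries held 6.38 to 17.3 in clone 3, 489 to 537 in clone 10 and 509 to 550 in clone 13. VEGFC, a lymphatic growth factor, had 39.99, 48.4 and 38.9 in clone 12. It was at 0 in all 6 DMSO libraries of clones 15 and 2-1, at least 85.96-fold higher in clone 12 against the floor of 3 reads over these libraries. FGF2 fell, averaging 680.1 in clone 12, against 1423 in clone 15 and 1757 in clone 2-1 (-1.06, SE 0.05, adjusted p = 1.05e-10). IGF1, the insulin-like growth factor, had 1408, 1389.7 and 1277 normalized counts in clone 12, against 35.3, 54.5 and 36.5 in clone 15 and 3.08, 1.01 and 5.65 in clone 2-1 (5.01, SE 0.33, adjusted p = 7.60e-09).

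Some genes induced downstream of such receptors rose. Of 37 immediate early and feedback genes tested, 6 rose and 2 fell (16.2% and 5.41%, against 4.59% and 5.57% of all genes), so the share that fell was near that of all genes. The median log2 difference of the list from the mean of the other clones was -0.15, against 0.01 for all genes tested, so the list did not rise as a whole. SPRY2, a feedback inhibitor of receptor signalling, had 269.7, 281 and 287 normalized counts in clone 12, against 90.9, 59.4 and 72.1 in clone 15 and 61.6, 79.6 and 76.3 in clone 2-1 (1.92, SE 0.16, adjusted p = 1.46e-07). SPRY4, of the same family, had 468, 427 and 437 normalized counts in clone 12, against 113, 145 and 109 in clone 15 and 34.9, 35.3 and 34.9 in clone 2-1 (1.86, SE 0.14, adjusted p = 2.55e-08). ETV4, an ETS factor induced by ERK signalling, averaged 513 in clone 12, against 174 in clone 15 and 91.8 in clone 2-1, and DUSP1, a phosphatase of MAP kinases, 573 in clone 12, against 136 in clone 15 and 203 in clone 2-1. SPRY1 and EGR3 were the other rises, and FOSB and EGR2 the falls. CCND1 (cyclin D1), another gene known to respond to this signalling, fell: it averaged 138 in clone 12, against 520.0 in clone 15 and 453 in clone 2-1 (-1.71, SE 0.08, adjusted p = 1.36e-10), and its partner kinase CDK6 rose, averaging 1887 in clone 12, against 479.6 in clone 15 and 474 in clone 2-1 (1.98, SE 0.06, adjusted p = 2.79e-12).

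Interleukin 1 genes, their receptor and other cytokine genes rose. Of 24 cytokines, chemokines and NF-kB targets tested, 8 rose (33.3%, against 4.59% of all genes) and IL18 fell (4.17%, against 5.57%). IL1R1, the signalling receptor of interleukin 1, had 732, 723 and 816 normalized counts in clone 12, against 1.86, 1.95 and 0 in clone 15 and 0 in all 3 of clone 2-1 (log2 difference from the nearer clone 8.54, SE 0.43, adjusted p = 3.72e-10). IL1B had 65.6, 55.6 and 37.8 normalized counts in clone 12, against 2.78, 0 and 0 in clone 15 and 0 in all 3 of clone 2-1 (5.08, SE 0.59, adjusted p = 4.17e-06). CCL2, a chemokine for monocytes, had 81.01, 104 and 103 normalized counts in clone 12, against 1.86, 1.95 and 0 in clone 15 and 1.03, 1.01 and 0.942 in clone 2-1 (5.56, SE 0.48, adjusted p = 1.67e-07). TSLP, an epithelial cytokine, had 197, 135 and 175 normalized counts in clone 12, against 5.57, 16.5 and 8.12 in clone 15 and 3.08, 10.1 and 11.3 in clone 2-1 (4.05, SE 0.43, adjusted p = 1.67e-06). IL6, IL32, TNFAIP3 and IL1A rose by 1.92, 1.95, 3.14 and 2.03 on the log2 scale from the nearer clone, and the control clones held at most 9.77 of any of these 4 in their means. S100A8, a calcium-binding alarmin of squamous epithelium and myeloid cells, had 25.6, 12.1 and 28.1 normalized counts in clone 12, against 0 in all 6 libraries of clones 15 and 2-1. Its partner S100A9 had 18.5, 30.2 and 19.4 normalized counts in clone 12, against 0, 0 and 4.06 in clone 15 and 0, 0 and 0.942 in clone 2-1.

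**Figure D3:**
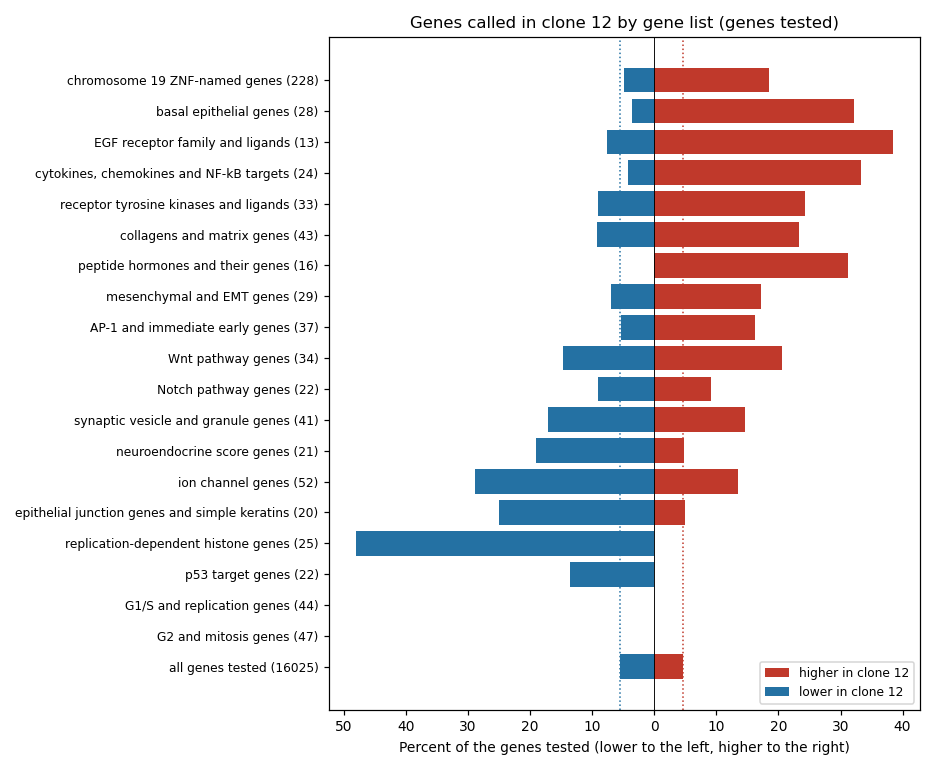
Bars give the percent of the genes tested in each list that were called lower (left) or higher (right) in clone 12 than in both other knockout clones with DMSO, with the number tested in parentheses. Dotted lines mark the 5.57% lower and 4.59% higher of all 16025 genes, and the 25 replication-dependent histone genes have the longest bar to the left.

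Matrix genes were called in both directions. Of 43 collagens and matrix genes tested, 10 rose and 4 fell (23.3% and 9.3%, against 4.59% and 5.57% of all genes). COL11A1, a fibrillar collagen, had 3644, 3592 and 3629 normalized counts in clone 12, against 6.49, 1.95 and 3.05 in clone 15 and 22.6, 25.2 and 29.2 in clone 2-1 (log2 difference from the nearer clone 7.09, SE 0.26, adjusted p = 1.12e-11). COL12A1, a fibril-associated collagen, had 38123, 38728 and 37418 normalized counts in clone 12, against 147, 161 and 139 in clone 15 and 7002, 6812 and 7277 in clone 2-1 (2.44, SE 0.05, adjusted p = 1.05e-14). TNC (tenascin C), an adhesion-modulating matrix protein, fell, with 522, 516 and 524 normalized counts in clone 12, against 3658, 4076 and 4094 in clone 15 and 6395, 6194 and 6661 in clone 2-1 (-2.92, SE 0.05, adjusted p = 1.62e-15), below the control means of 4025, 1732 and 2491 too. Among 29 mesenchymal genes tested 5 rose and 2 fell (17.2% and 6.9%). POSTN (periostin) had 8948, 9349 and 9648 normalized counts in clone 12, against 364, 339 and 327 in clone 15 and 800.3, 810.0 and 888 in clone 2-1 (3.48, SE 0.05, adjusted p = 1.62e-15), and ACTA2, the smooth muscle actin, had 2626, 2695 and 2774 normalized counts in clone 12, against 214, 224 and 213 in clone 15 and 307, 251 and 305 in clone 2-1 (3.23, SE 0.08, adjusted p = 9.38e-14). VIM (vimentin) was not called: it averaged 4073 in clone 12, against 322 in clone 15 and 49832 in clone 2-1. FN1 (fibronectin) averaged 191446, against 43600 and 104863 in clones 15 and 2-1, less than 2-fold from the nearer clone.

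Among signalling genes of development, members of the Notch, Wnt and BMP pathways were called in each direction. DLL1, a Notch ligand, had 1251, 1249 and 1308 normalized counts in clone 12, against 12.99, 18.5 and 11.2 in clone 15 and 0, 4.03 and 0 in clone 2-1 (6.41, SE 0.48, adjusted p = 2.98e-08), and LFNG, a glycosyltransferase that modifies Notch, rose as well, with means of 189 in clone 12, against 39.2 in clone 15 and 7.61 in clone 2-1. HEYL and DTX1, Notch targets and regulators, fell, and with these 2 rises and 2 falls 22 Notch pathway genes were tested (9.09% each way, against 4.59% higher and 5.57% lower of all genes). Of 34 Wnt pathway genes 7 rose and 5 fell (20.6% and 14.7%). FZD8, a Wnt receptor, had 744, 665 and 655 normalized counts in clone 12, against 55.7, 96.3 and 67.00 in clone 15 and 56.5, 63.5 and 78.2 in clone 2-1 (3.25, SE 0.18, adjusted p = 9.21e-10). Control libraries held 332 to 616 normalized counts of FZD8. LGR5, a receptor of R-spondins, averaged 5337 in clone 12, against 1401 in clone 15 and 1139 in clone 2-1 (1.93, SE 0.04, adjusted p = 2.89e-14). FRZB, a secreted Wnt antagonist, fell to 0, 0 and 2.16 in clone 12, against 22.3, 18.5 and 28.4 in clone 15 and 122, 157 and 131 in clone 2-1. Of 36 TGF-beta and BMP genes 3 rose and 2 fell (8.33% and 5.56%), the falls near the share of all genes. GREM1, a secreted BMP antagonist, had 50.2, 61.7 and 30.2 normalized counts in clone 12, against 0, 0.973 and 0 in clone 15 and 0, 0 and 1.88 in clone 2-1, and ID2, a BMP target that blocks helix-loop-helix factors, fell, averaging 176 in clone 12, against 1003 in clone 15 and 709 in clone 2-1 (-2.01, SE 0.08, adjusted p = 1.27e-11). Peptide hormone genes rose without a fall: 5 of 16 tested (31.2%, against 4.59% of all genes), led by NPPC, a natriuretic peptide, with 188, 223 and 206 normalized counts in clone 12, against 0, 5.84 and 2.03 in clone 15 and 7.19, 8.06 and 6.60 in clone 2-1 (4.64, SE 0.52, adjusted p = 2.38e-06).

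The largest falls included neuronal genes that the other knockout clones expressed at higher levels. ELAVL3, a neuronal RNA-binding protein, had 12.3, 14.5 and 11.9 normalized counts in clone 12, against 155, 211 and 159 in clone 15 and 157, 136 and 130.0 in clone 2-1 (log2 difference from the nearer clone -3.35, SE 0.18, adjusted p = 9.59e-10), and the control clones averaged 1075, 1224 and 1699.8. SYT14, a synaptotagmin, had 13.3, 10.9 and 12.96 normalized counts in clone 12, against 195, 199 and 198 in clone 15 and 266, 274 and 281 in clone 2-1 (-3.89, SE 0.15, adjusted p = 1.31e-11). Control means of SYT14 were 567, 604 and 863. For both genes all knockout clones lay below the controls and clone 12 lowest. ANK1 (an ankyrin), APBA1 (a synaptic adaptor), SLC6A17 (a vesicle transporter) and DIRAS1 (a Ras-like GTPase) had the same order, with differences of -3.47, -3.07, -3.23 and -2.97 on the log2 scale from the nearer clone. ASTN1, a receptor of migrating neurons, had 5.13, 2.42 and 4.32 normalized counts in clone 12, against 242, 245 and 243 in clone 15 and 342, 300.2 and 337 in clone 2-1 (-5.67, SE 0.21, adjusted p = 9.88e-12), with control means of 150.1, 105 and 126, between clone 12 and the other clones.

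The other genes among the 20 largest falls were of several kinds. LAMP5, a neuronal vesicle protein, averaged 6.85 in clone 12, against 345 in clone 15 and 769 in clone 2-1, and ZNF536, a zinc-finger repressor of neuronal differentiation, 4.89 in clone 12, against 163 in clone 15 and 174 in clone 2-1. GALNT6, which starts mucin-type glycosylation, averaged 2.57 in clone 12, against 107 in clone 15 and 159 in clone 2-1, and ARHGEF28, a guanine nucleotide exchange factor, 19.3 in clone 12, against 268 in clone 15 and 536 in clone 2-1. FSTL5, a secreted follistatin-like protein, averaged 52.2 in clone 12, against 544 in clone 15 and 651 in clone 2-1, and STK32A, a kinase, 41.3 in clone 12, against 358 in clone 15 and 357 in clone 2-1. For all 6 the libraries of clone 12 lay below every library of the other clones.

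Falls toward a low control level were also among the largest. WWC1, a regulator of Hippo signalling, had 22.6, 14.5 and 14.04 normalized counts in clone 12, against 332, 343 and 379.7 in clone 15 and 1069, 965 and 1027 in clone 2-1 (-4.32, SE 0.15, adjusted p = 5.83e-12), and control means of 4.91, 6.41 and 49.5. ITGBL1, a secreted protein with integrin-like repeats, had 28.7, 20.6 and 24.8 normalized counts in clone 12, against 311, 326 and 371 in clone 15 and 494, 508 and 573 in clone 2-1 (-3.72, SE 0.13, adjusted p = 8.51e-12), and control means of 18.2, 22.1 and 9.52. For these 2 genes clones 15 and 2-1 were far above the controls and clone 12 was closer to them.

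Ion channel genes were called in both directions. Of 52 tested, 15 fell and 7 rose (28.8% and 13.5%, against 5.57% and 4.59% of all genes), with a median log2 difference from the mean of the other clones of -0.51, against 0.01 for all genes tested. Sodium channel genes SCN2A and SCN3A, which lie side by side on chromosome 2, and the potassium channel gene KCNJ3 were among the falls. KCNK2 rose, with 95.4, 109 and 116 normalized counts in clone 12, against 0 in all 3 of clone 15 and 0, 1.01 and 0.942 in clone 2-1 (6.09, SE 0.47, adjusted p = 4.70e-08). TRPM4, a calcium-activated cation channel, fell, with 18.5, 16.9 and 14.04 normalized counts in clone 12, against 254, 311 and 239.6 in clone 15 and 114, 147 and 155 in clone 2-1 (-3.00, SE 0.18, adjusted p = 2.53e-09). Of 41 synaptic vesicle and granule genes 7 fell and 6 rose (17.1% and 14.6%). SYN2, a synapsin, had 7.18, 3.63 and 5.40 normalized counts in clone 12, against 37.1, 33.1 and 43.7 in clone 15 and 52.4, 43.3 and 54.6 in clone 2-1, and control means of 289, 313 and 336. SYN3, its paralogue, had 62.6, 39.9 and 56.1 normalized counts in clone 12, against 0 in all 3 of clone 15 and 1.03, 0 and 0 in clone 2-1. In the neuroendocrine score list 4 of 21 fell and 1 rose (19% and 4.76%): MYT1, RTN1, RUNDC3A and KIF5C fell, and CHGA had 35.9, 30.2 and 29.2 normalized counts in clone 12, against 11.1, 17.5 and 15.2 in clone 15 and 15.4, 7.05 and 7.54 in clone 2-1 (1.08, SE 0.35, adjusted p = 0.022), against control means of 4325, 3351 and 2800.3. The CHGA call was lost with equal library totals, in FPKM and without replicate 1 of clone 12 or of clone 15.

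Replication-dependent histone genes had the largest share of falls among the lists. Of 25 tested, 12 fell and none rose (48%, against 5.57% of all genes), with a median log2 difference of -1.29. HIST1H1C, a linker histone, had 509, 472 and 514 normalized counts in clone 12, against 3579, 3738 and 3729.9 in clone 15 and 3369, 3078 and 3306 in clone 2-1 (log2 difference from the nearer clone -2.70, SE 0.05, adjusted p = 3.18e-15). HIST2H2BE, a histone H2B, had 116, 134 and 125 normalized counts in clone 12, against 529.7, 489 and 512 in clone 15 and 673, 545 and 604 in clone 2-1 (-2.02, SE 0.09, adjusted p = 8.69e-11). Control means were 570.0, 1075 and 304 for HIST1H1C and 165, 309 and 53.5 for HIST2H2BE, so clone 12 lay among the control clones and the other knockout clones above them. H1F0, a linker histone that is not replication-dependent although it stands in the list, averaged 2620.2 in clone 12, against 6028 in clone 15 and 5947 in clone 2-1 (-1.18, SE 0.04, adjusted p = 2.22e-12). Most histone mRNAs of this class lack a poly(A) tail and several copies are nearly identical, so these values are of what a poly(A) library captures and single copies are uncertain. With a filter of 50 normalized counts 7 histone genes were called lower. Cell cycle genes gave no call: of 44 G1/S and replication genes and 47 genes of G2 and mitosis none was called by limma, edgeR or DESeq2, with median differences of 0.16 and -0.09. At an unadjusted p under 0.05 from limma, with no fold minimum, they numbered 27 and 20. MCM7, for one, averaged 16628 in clone 12, against 6770.3 in clone 15 and 9404 in clone 2-1.

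Of 22 p53 target genes tested 3 fell (13.6%, against 5.57% of all genes) and none rose: TP53I3 had 45.1, 48.4 and 39.95 normalized counts in clone 12, against 309.8, 337 and 298 in clone 15 and 259, 279 and 257 in clone 2-1 (-2.55, SE 0.12, adjusted p = 1.16e-10), and BBC3 and FDXR differed by -1.61 and -1.09 from the nearer clone on the log2 scale. The 3 genes lie on chromosomes 2, 19 and 17, and the FDXR call was lost when differences were centred on neighbouring genes.

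Zinc-finger genes of chromosome 19 formed a group of rises. Genes named ZNF with a number were grouped after their values were seen. Of 228 such genes on chromosome 19, 42 rose and 11 fell (18.4% and 4.82%), against 6 rises and 2 falls among 241 on other chromosomes (2.49% and 0.83%). Over all genes tested the shares were 4.59% and 5.57%, so the share of falls on chromosome 19 was near that of all genes. Most of these proteins pair zinc fingers with a KRAB domain, which recruits silencing complexes, and the genes stand in tandem clusters. Between ZNF93 and ZNF681 21 of 30 tested rose, between ZNF616 and ZNF415 10 of 16, and between ZNF439 and ZNF563 7 of 12, none fell in these 3 clusters, and the rises there number 38 of the 42. Of the 11 falls on chromosome 19, 10 lie in the stretch from CLPTM1 to its end, which was lower as a whole and is described below. The cluster from ZNF616 to ZNF415, with 10 of the rises, lies in that stretch too. The median ZNF gene from ZNF93 to ZNF681 had 208 normalized counts in clone 12, against 5.04 in clone 15 and 11.3 in clone 2-1, and 9.44, 10.1 and 51.9 in control clones 3, 10 and 13.

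Several genes of these clusters were close to silent in the other knockout clones. ZNF208 had 267, 334 and 252 normalized counts in clone 12, against 0, 1.95 and 3.05 in clone 15 and 1.03, 3.02 and 1.88 in clone 2-1 (log2 difference from the nearer clone 6.63, SE 0.49, adjusted p = 2.56e-08). ZNF93, known to silence a retrotransposon family in primates, had 441, 444 and 493 normalized counts in clone 12, against 5.57, 2.92 and 5.08 in clone 15 and 3.08, 9.07 and 5.65 in clone 2-1 (6.15, SE 0.34, adjusted p = 1.03e-09), and control clone 13 averaged 61.6. ZNF682 was at 0 in all 6 other libraries, with 46.1, 72.6 and 59.4 in clone 12, and so was ZNF320 of the cluster from ZNF616 to ZNF415, with 57.4, 50.8 and 63.7. All 42 rises were also called in the libraries with JQ1. These genes share long alike stretches, so reads of 1 copy may have been counted for another, and the level of a single gene is less certain than that of its cluster.

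**Figure D4:**
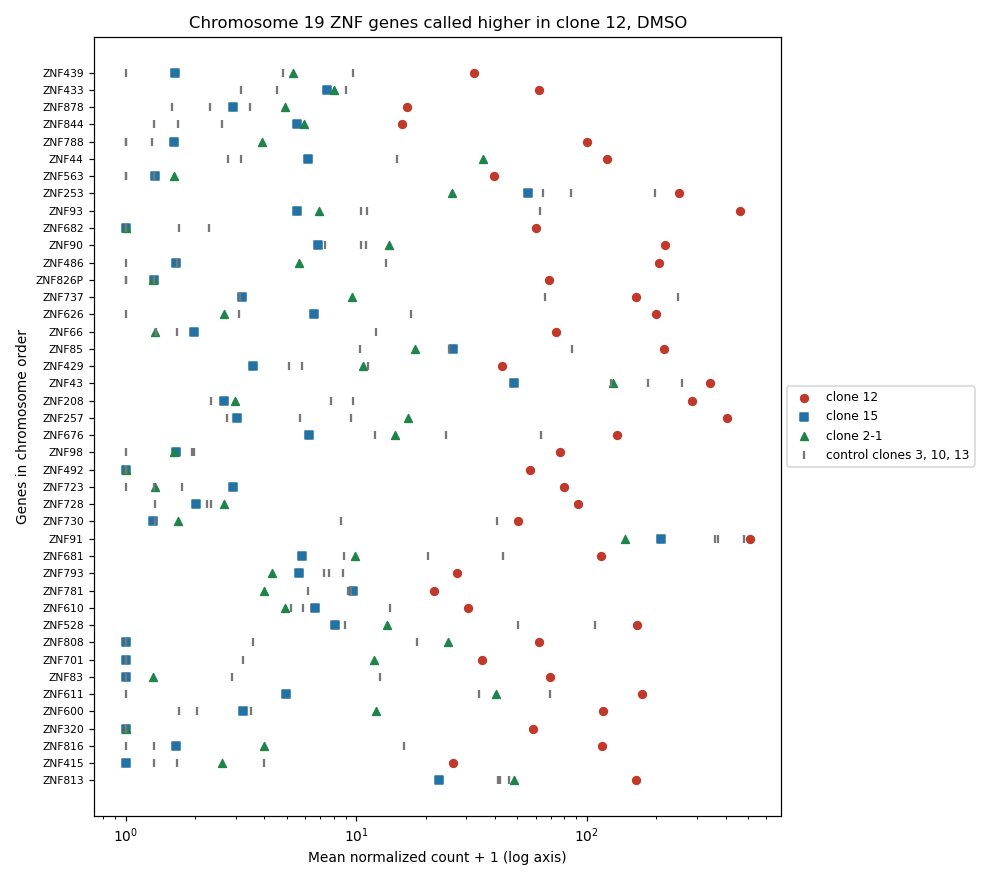
Mean normalized count + 1 (log axis) of the 42 ZNF-named genes of chromosome 19 called higher in clone 12, in chromosome order from top to bottom, for clone 12, clones 15 and 2-1 and the 3 control clones with DMSO. Clone 12 is to the right of both other knockout clones in every row, from 14.8 to 508 normalized counts, and control clones reach or come near it in few rows, such as ZNF91 and ZNF737.

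The sequences before the starts of 6 of these genes are shown because the genes rose together, 5 in the cluster from ZNF93 to ZNF681 and 1 in that from ZNF616 to ZNF415. They are the 150 bases before the first listed start in the RefSeq promoter table (build GRCh38.p14), 5′ to 3′ on the gene's strand, with the 8 letters CCAATCAG, or CTGATTGG for the same letters on the other strand, in capitals.
ZNF93 (chr19:19900796-19900945, plus strand): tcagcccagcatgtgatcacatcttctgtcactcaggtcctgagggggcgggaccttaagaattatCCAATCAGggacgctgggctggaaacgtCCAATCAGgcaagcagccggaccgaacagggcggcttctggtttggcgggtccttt
ZNF486 (chr19:20167064-20167213, plus strand): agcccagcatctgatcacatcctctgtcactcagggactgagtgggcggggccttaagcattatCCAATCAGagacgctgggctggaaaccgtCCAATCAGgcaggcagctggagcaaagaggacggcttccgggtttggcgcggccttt
ZNF626 (chr19:20661572-20661721, minus strand): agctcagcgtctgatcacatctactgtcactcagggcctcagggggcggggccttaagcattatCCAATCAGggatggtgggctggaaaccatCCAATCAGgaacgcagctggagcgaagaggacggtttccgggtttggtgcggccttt
ZNF208 (chr19:22010944-22011093, minus strand): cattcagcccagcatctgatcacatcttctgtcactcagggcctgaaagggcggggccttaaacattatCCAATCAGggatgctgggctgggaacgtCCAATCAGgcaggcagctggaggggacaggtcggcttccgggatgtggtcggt
ZNF492 (chr19:22634174-22634323, plus strand): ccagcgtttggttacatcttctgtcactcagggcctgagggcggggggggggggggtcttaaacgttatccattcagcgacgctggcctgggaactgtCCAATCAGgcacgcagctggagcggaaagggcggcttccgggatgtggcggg
ZNF320 (chr19:52897695-52897844, minus strand): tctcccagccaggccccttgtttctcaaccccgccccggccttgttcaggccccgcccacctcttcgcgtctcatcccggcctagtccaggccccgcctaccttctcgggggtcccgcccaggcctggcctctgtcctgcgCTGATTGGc

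The first 4 of these hold the letters at 2 places, ZNF492 and ZNF320 at 1. The first 5, from 1 cluster, are identical with each other at 78.0 to 89.3% of 150 bases (global alignment), and ZNF320, from another cluster, with them at 54.0 to 58.0%. The letters contain CCAAT, the core of a common promoter element, and were chosen after these sequences were read. Within 250 bases before a start they occur on either strand in 23 of 33 protein-coding chromosome 19 ZNF genes that rose and have a promoter in the table (69.7%; 33 of 40 had one). That count includes the genes shown above, from whose sequences the letters were chosen, so its share is partly fixed by the choice. The letters occur in 31 of 155 that were not called (20%), in 697 of all 10586 protein-coding genes with a promoter (6.58%), and in 3.81% of the 35116 promoters of the table. Of the genes that fell 8 of 11 had a promoter, and none of these 8 held the letters. Since many of these genes are related copies the shares are a description of these families, and a match is not a binding site.

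Along stretches of chromosomes clone 12 differed from both other knockout clones, mostly by less than the 2-fold needed for a call. Genes with a mean of at least 100 normalized counts (10809 genes) were cut into 270 blocks of about 40 neighbours, in GENCODE order. Stretches of at least 3 neighbouring blocks whose median differed by 0.2 or more on the log2 scale from both other clones in 1 direction numbered 6: 3 lower (on chromosomes 2, 17 and 19) and 3 higher (2 on chromosome 6 and 1 on chromosome 7). The rule for stretches was set after the values were seen.

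Chromosome 2, which carries NEUROD1, was lower in clone 12 than in the other knockout clones along nearly all its length. From SH3YL1 to GMPPA, 17 of its 19 blocks, 671 genes had a median of -0.48 from clone 15 and -0.47 from clone 2-1, and 89.3% of them were below the mean of the other clones. Set against the control clones the same genes stood at -0.42 in clone 12, 0.05 in clone 15 and 0.04 in clone 2-1. Of 926 genes tested in this stretch 101 fell (10.9%) and 28 rose (3.02%). Over all chromosome 2 genes the 3 clone 12 libraries had medians of -0.46, -0.45 and -0.42 from the mean of the other clones. KIF5C, SCN2A, SCN3A, ID2, HOXD3 and TP53I3 are on this chromosome, and the calls of KIF5C and HOXD3 were lost when differences were centred on neighbouring genes.

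The ends of 2 further chromosomes were lower in clone 12 than in the other knockout clones. On chromosome 19 from CLPTM1 to its end, 200 genes had medians of -0.63 from clone 15 and -0.66 from clone 2-1. Of 312 tested there 77 fell (24.7%), the highest share of any stretch, and 13 rose (4.17%). Against the control clones these genes stood at -0.57 in clone 12, 0.07 in clone 15 and 0.08 in clone 2-1. TNNT1 and EMC10, among the largest falls, and BBC3 lie on chromosome 19. On chromosome 17 from ICT1 to its end, 28 of 158 genes tested fell (17.7%) and 1 rose, and 120 genes had medians of -0.45 from clone 15 and -0.63 from clone 2-1. Against the control clones they stood at -0.37 in clone 12, 0.12 in clone 15 and 0.30 in clone 2-1.

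Most of chromosome 6 and part of chromosome 7 were higher in clone 12 than in the other knockout clones. On chromosome 6 clone 12 lay above the controls and clone 15, in the second stretch clone 2-1 too, below them. The stretches of chromosome 6 ran from EXOC2 to ZFAND3 (medians 0.51 and 0.32 from clones 15 and 2-1) and from YIPF3 to PDCD2 (0.70 and 0.63). In the first 16 of 317 genes tested rose (5.05%), near the 4.59% of all genes, and in the second 52 of 420 (12.4%). Against the control clones the first stood at 0.32 in clone 12, -0.22 in clone 15 and -0.01 in clone 2-1, and the second at 0.36 in clone 12, -0.27 in clone 15 and -0.24 in clone 2-1. DLL1, RPS6KA2, FOXC1 and TAP2 are on this chromosome. The 9 HIST1 histone genes called lower are on it too. On chromosome 7 from CACNA2D1 to NAPEPLD 120 genes had medians of 0.90 and 0.62 from clones 15 and 2-1, and 24 of 166 tested rose (14.5%). Against the control clones they stood at 0.82 in clone 12, -0.01 in clone 15 and 0.26 in clone 2-1. CDK6, MCM7 and SEMA3E lie in this stretch. These were the only stretches that met the rule. The lower stretches held 206 falls and 42 rises among 1396 genes tested (14.8% and 3.01%). The higher stretches held 92 rises and 18 falls among 903 (10.2% and 1.99%). Outside all stretches 601 of 13726 genes rose (4.38%) and 668 fell (4.87%). The DNA of the clones was not analysed here.

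**Figure D5:**
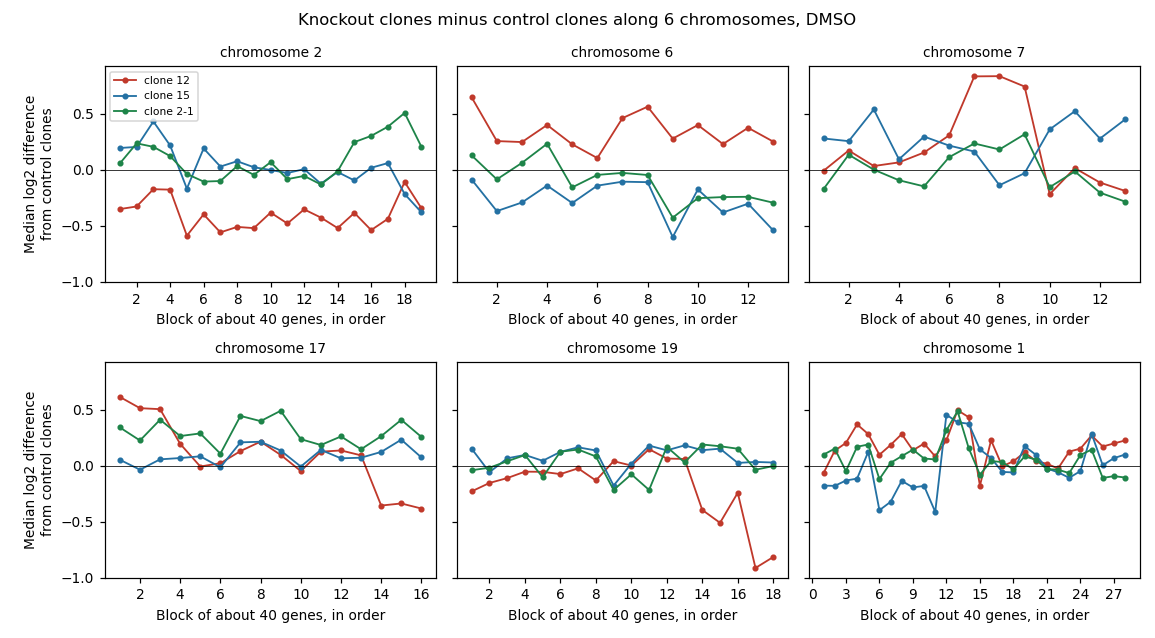
Median log2 difference of each knockout clone from the mean of the 3 control clones in blocks of about 40 neighbouring genes, in order along 6 chromosomes, with DMSO. Clone 12 runs below the other clones along chromosome 2 and at the ends of chromosomes 17 and 19, and above them along chromosome 6 and in blocks 7 to 9 of chromosome 7, and chromosome 1 is shown as a chromosome without such a stretch.

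The JQ1 libraries of the same clones served as a second set. Clone 12 with JQ1 replicate 1 was left out because it held 46010 normalized counts of CEACAM6, an epithelial adhesion molecule that was at 0 in the other 8 knockout libraries with JQ1 and in all 9 with DMSO. With 2 libraries of clone 12 and 6 of the others, 574 genes were higher and 724 lower of 15520 tested (3.7% and 4.66%, 8.36% together). With that library included the counts were 459 and 237. Of the 735 genes higher with DMSO, 569 were tested with JQ1 (77.4%), and 409 of these were called higher again (71.9%) and none lower. The rest were not tested because fewer than 2 JQ1 libraries held 10 normalized counts, as for IL1B and CCL2. In the 2 clone 12 libraries used, IL1B had 4.86 and 4.67 normalized counts and CCL2 0.972 and 0. Of the 892 lower genes 789 were tested (88.5%), and 419 of these were called lower again (53.1%) and 2 higher. Direction against both other clones was the same for 550 of the 569 (96.7%) and for 739 of the 789 (93.7%). Block medians were close too: chromosome 2 from SH3YL1 to GMPPA stood at -0.48 and -0.44 from clones 15 and 2-1 with JQ1.

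Among the calls not repeated with JQ1 were those of HBEGF and SPRY2. HBEGF had 1320 and 1388 normalized counts in the 2 clone 12 libraries used, against 1119, 1183 and 1034 in clone 15 and 1274, 1199 and 1227 in clone 2-1. SPRY2 had 70.0 and 63.0, against 93.7, 101 and 81.7 in clone 15 and 89.8, 86.6 and 72.9 in clone 2-1. For both genes clone 12 lay far above the other clones with DMSO and near or below them with JQ1. Whether the difference itself changed with JQ1 was not tested. EGFR, by contrast, was 7.94 above the nearer clone on the log2 scale with JQ1.

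The labelled cell type was checked against neuroendocrine markers: CHGA, SYP, INSM1, SCG3 and SEZ6 averaged 20.3 to 68.0 in clone 12, 11.5 to 138 in clone 15 and 1.93 to 91.2 in clone 2-1, against 1993 to 5563 in the control clones, so the knockout clones lie far below the level of the labelled subtype. Markers of lung alveoli and airways summed to 33.8 to 44.7 in the clone 12 libraries, 30.2 to 112 in clones 15 and 2-1 and 25.5 to 44.5 in controls, over 7 of 12 genes, with SFTPA1 and CEACAM6 at 0 in the 9 knockout DMSO libraries. Immune markers (6 of 16 genes) summed to 253 to 354 in clone 12, 261 to 949 in the others and 31.1 to 90.4 in controls, carried by CD68. No gene was called among the 3 tested of each list (limma, edgeR and DESeq2), and 0 had an unadjusted p under 0.05. The 1 erythroid gene in the table summed to at most 2.16 in clone 12, 5.08 in the others and 3.997 in controls. Endothelial markers (4 of 9 genes) summed to 284 to 312 in clone 12, 55.8 to 521 in the others and 4327 to 8478 in controls, with CDH5 and TEK called higher of 3 tested (the TEK call was lost without replicate 2 or 3 of clone 12 and without replicate 1 or 3 of clone 15) and VWF averaging 1.10 in clone 12. Fibroblast genes, all 8 in the table, summed to 34041 to 36228 in clone 12 and 25682 to 55182 in the others and 2353 to 9222 in controls, with FAP called lower of 6 tested. Tuft cell markers (5 of 10) summed to 875 to 1030 in clone 12 and 1197 to 3791 in the others and 769 to 1110.1 in controls, with LRMP called higher of 5 tested. Their part in the results was not tested.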

How the data were processed

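Per the labels' protocols, RNA was isolated with an RNeasy kit and made into TruSeq Stranded mRNA libraries. The submitters' processing notes name cutadapt, STAR, RSEM and hg19. No version, and no strand setting, is given in the sources used here. The authors deposited a signal table, counts divided by DESeq2 size factors, for 19014 genes in 36 libraries, and an FPKM table (RSEM, reads per length and depth) for 57820. Within 1e-06, 100% of the normalized counts were whole reads divided by 1 factor per library, which gave depth and whole reads.

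Clone 12 was tested against clones 15 and 2-1 with limma 3.58.1 (limma-trend, R 4.3.3) on log2(normalized count + 1), where 3 or more of 9 libraries (2 with JQ1) held 10 normalized counts. The p of a gene is the larger of its 2 contrasts, or 1 where their signs differ, adjusted by Benjamini-Hochberg over all genes; all tests are two-sided. The difference given is that from the nearer clone. Chromosomes came from GENCODE 29 (18329 genes matched), and 62 symbols stand on more than 1 gene. Genes named were the 20 largest differences each way with a mean of at least 100, and up to 4 called members of each list; further members, the ZNF group, stretches and letters searched were chosen after values were seen. Clones and lists were chosen with earlier results of these data known. Alternatives were other pseudocounts, filters, fold minima and scalings, FPKM, edgeR 4.0.16, DESeq2 1.42.0, a replicate block and leaving out libraries. Methods were tested on simulated data. Some genes that the rule names are not reported here. Intervals and floors cover counting error only.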

Additional observations from a re-analysis of the deposited data

Results flagged for a closer look

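For 2 genes clone 12 was called on opposite sides of both other knockout clones with DMSO and with JQ1, and the difference between the treatments was not tested. TXNIP, an inhibitor of thioredoxin, had 146, 169 and 171 normalized counts in clone 12, against 358, 413 and 397 in clone 15 and 664, 682 and 685 in clone 2-1 with DMSO, -1.26 from the nearer clone on the log2 scale. With JQ1 it had 4478 and 4411 in replicates 2 and 3 of clone 12, against means of 2005 in clone 15 and 2102 in clone 2-1, a difference of 1.08. CTD-2521M24.9 averaged 6.87 in clone 12, against 17.6 in clone 15 and 25.5 in clone 2-1 with DMSO (-1.26). With JQ1 it had 109 and 77.03 in clone 12, against means of 23.99 in clone 15 and 31.7 in clone 2-1 (1.51).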

How the results depend on the processing

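No chromosome median changed sign, while counts and shares could not reverse by construction. Of 538 recomputed counts, medians and shares, 495 moved little, meaning within a limit set for each kind of measure. For medians this limit was the SD over the clone 12 libraries. The cause of the other 43 was not tested beyond what each setting does by construction. Without a fold minimum clone 12 had 3208 higher and 2903 lower genes with DMSO and 2848 and 2507 with JQ1, clones 15 and 2-1 had 4555 and 4584 called, control clones 3, 10 and 13 had 4404, 1713 and 4241, 68 ZNF genes of chromosome 19 were higher, and 51.8% of higher genes had all controls on the side of clones 15 and 2-1. With a 4-fold minimum these were 399 and 258, 307 and 184, 293 and 524, 281, 66 and 165, and 80.5%, and 4 histone genes were lower and 4 receptor tyrosine kinase genes higher. A filter of 50 normalized counts gave 562 lower genes with DMSO, 442 with JQ1, 472, 113 and 322 for control clones 3, 10 and 13 and 7 histone genes. In FPKM control clone 10 had 109. With clone 12 JQ1 replicate 1 included 237 genes were lower with JQ1.

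Equal library totals moved the median of all genes by -0.11, to -0.10, and with it chromosome medians: -0.56 for chromosome 2 (FPKM -0.54), 0.40 for chromosome 6 (0.41), -0.76 for distal chromosome 19 (-0.74), 0.62 for the chromosome 7 stretch (0.64) and -0.65 for distal chromosome 17. Leaving out each library in turn gave 709 to 732 higher and 862 to 932 lower genes with DMSO, 493 to 570 and 654 to 707 with JQ1, -0.67 to -0.62 for distal chromosome 19 and -0.57 to -0.52 for distal chromosome 17. Of the 1627 calls 1585 were shared with edgeR, 1543 with DESeq2, 1538 with equal totals, 1296 with differences centred on 41 neighbouring genes (chosen after seeing the data) and 1233 with FPKM. Replicate numbers did not pair libraries (r -0.09 to 0.05 for the 9 same-number pairs, -0.10 to 0.11 for others), and a replicate block gave 733 higher and 882 lower genes. Depth limits genes under 10 normalized counts, which were not tested.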

Other observations

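Interferon-stimulated genes were called in both directions: of 33 tested 4 rose and 5 fell (12.1% and 15.2%, against 4.59% and 5.57% of all genes). GBP1, an interferon-induced GTPase, averaged 338 in clone 12, against 7.79 in clone 15 and 51.2 in clone 2-1 (log2 difference from the nearer clone 2.69, SE 0.33, adjusted p = 7.54e-06), and IFI27, a mitochondrial interferon-induced protein, averaged 4.72 in clone 12, against 23.2 in clone 15 and 28.02 in clone 2-1 (-2.09, SE 0.31, adjusted p = 5.09e-05). Of 21 antigen presentation genes 3 rose and HLA-F fell (14.3% and 4.76%), and TAP2, a subunit of the peptide transporter, averaged 108 in clone 12, against 19.1 in clone 15 and 4.31 in clone 2-1 (2.48, SE 0.30, adjusted p = 5.58e-06). Of 40 glycolysis and hypoxia genes 4 rose and 1 fell (10% and 2.5%), with NDRG1 at 2069.8 in clone 12, against 308 in clone 15 and 140.0 in clone 2-1 (2.75, SE 0.11, adjusted p = 3.08e-11). Of 45 cadherins and protocadherins 7 rose and 3 fell (15.6% and 6.67%, the falls near the 5.57% of all genes), among them CDH8, which averaged 45.3 in clone 12, against 5.20 in clone 15 and 2.34 in clone 2-1 (2.93, SE 0.47, adjusted p = 0.000108), and PCDH8, which averaged 6.56 in clone 12, against 58.3 in clone 15 and 26.8 in clone 2-1 (-1.93, SE 0.30, adjusted p = 6.93e-05).

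Axon guidance genes gave 4 rises and 5 falls of 49 tested (8.16% and 10.2%, against 4.59% and 5.57% of all genes). SEMA3E, a secreted semaphorin, averaged 292 in clone 12, against 44.2 in clone 15 and 96.7 in clone 2-1 (1.58, SE 0.16, adjusted p = 9.05e-07), and GAP43, a growth cone protein, 5.67 in clone 12, against 18.5 in clone 15 and 18.8 in clone 2-1 (-1.68, SE 0.44, adjusted p = 0.00561). Of 9 muscle genes tested 3 rose and 1 fell (33.3% and 11.1%). TNNI2, a troponin of fast skeletal muscle, averaged 27.1 in clone 12, against 0.973 in clone 15 and 0 in clone 2-1. TNNT3, another such troponin, averaged 118 in clone 12, against 5.89 in clone 15 and 2.27 in clone 2-1. ANXA1, a calcium-dependent membrane-binding annexin, fell, averaging 1411 in clone 12, against 6142 in clone 15 and 2955 in clone 2-1 (-1.07, SE 0.05, adjusted p = 2.88e-10), as 1 of 4 falls and 2 rises among 22 S100 proteins and annexins (18.2% and 9.09%). Of 6 small-cell subtype factors tested 1 rose and 1 fell (16.7% each way). NKX2-1, a lung lineage factor, fell, averaging 28.4 in clone 12, against 81.5 in clone 15 and 94.6 in clone 2-1 (-1.49, SE 0.19, adjusted p = 8.24e-06). YAP1 rose, with 169.2, 169.3 and 154 normalized counts in clone 12, against 84.4, 51.6 and 59.9 in clone 15 and 20.5, 11.1 and 13.2 in clone 2-1. SLC1A2 and SLC1A3, glutamate transporters of glia, went opposite ways, SLC1A2 averaging 8.78 in clone 12, against 29.04 in clone 15 and 69.5 in clone 2-1, and SLC1A3 averaging 259.9 in clone 12, against 50.3 in clone 15 and 2.63 in clone 2-1.

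Further lists follow, with shares to be set against 4.59% higher and 5.57% lower of all genes tested. None was called by limma, edgeR or DESeq2 among 27 cancer-testis genes, 23 polyamine and one-carbon genes and 4 genes of a metallothionein list. Of these 6, 11 and 2 had an unadjusted p under 0.05 from limma. The 4 genes of the last list include SLC30A1 and MTF1, which are not metallothioneins. HOX genes had 2 falls of 29 (6.9%) and integrins 2 falls of 18 (11.1%). Chromatin and DNA methylation enzymes had 2 falls of 36 (5.56%) and BCL2 family genes 1 fall of 14 (7.14%). The shares of HOX genes, of these enzymes and of BCL2 family genes are near that of all genes. Of YAP and TAZ targets 3 of 28 rose (10.7%), and of sterol and fatty acid synthesis genes 3 of 32 (9.38%). Of xenobiotic transporters 3 of 17 rose (17.6%), and none of these lists held a fall. IGF axis genes had 3 rises and 1 fall of 17 (17.6% and 5.88%), and imprinted genes 2 and 1 of 21 (9.52% and 4.76%). Non-neuroendocrine score genes had 4 rises and 3 falls of 20 (20% and 15%). Neural transcription factors had 2 rises and 2 falls of 29 (6.9% each way), and glial and neural crest genes 2 and 2 of 14 (14.3% each way). NRF2 and glutathione genes had 1 rise and 2 falls of 38 (2.63% and 5.26%). ATF4 and unfolded protein response genes had 1 and 1 of 31 (3.23% each way).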
